A study of Mus musculus with 19 samples.

Results

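The mature microRNAs (miRNAs) mmu-miR-192, mmu-miR-194 and mmu-miR-215, which the mouse carries in a pair of related gene clusters, were followed across a dose series in liver. They are called miR-192, miR-194 and miR-215 here, were taken by name from the probe annotation of the array, and are 3 of the 696 mouse miRNAs it measures. miRNAs are short RNAs that guide a silencing complex to messenger RNAs, mainly by pairing of the seed near their 5′ end. miR-192 and miR-194 are abundant in adult liver, and their clusters are also expressed in gut and kidney. In human cells both clusters have been described as targets of the tumour suppressor p53, which responds to DNA damage, and hepatocyte nuclear factors are known to drive them in liver and gut.

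The RNA came from male MutaMouse animals, a transgenic strain (40.6 in the labels) that carries a bacterial reporter for mutations and is shared by all groups. They were 10 weeks old and were gavaged daily for 28 days, and their livers were removed 3 days after dosing ended. The agent was dibenz[a,h]anthracene, a polycyclic aromatic hydrocarbon that liver enzymes turn into products that damage DNA. The control group received olive oil, the vehicle, at a dose of 0 mg/kg/day, and had 5 animals. The low dose group received 6.25 mg/kg/day (5 animals), the middle dose group 12.5 mg/kg/day (4 animals analysed here) and the high dose group 25 mg/kg/day (5 animals). Each animal had 1 one-colour array, the 19 arrays lay on 3 slides that each held all 4 groups, and the number of arrays limits the precision. The samples were pieces of liver with all its cell types, so fewer cells of a type and less of a miRNA per cell cannot be told apart.

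The mature sequences are shown because their seeds put the members into 2 families. They are printed 5′ to 3′ from RefSeq (build GRCm38.p6), with the seed, bases 2 to 8, in capitals:
miR-192: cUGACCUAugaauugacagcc
miR-215: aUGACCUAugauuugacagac
miR-194: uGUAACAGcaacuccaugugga
miR-192 and miR-215 share the seed UGACCUA and 18 of 21 positions. Counted from 1 at the 5′ end, with the miR-192 base first, they differ by C1A, A12U and C20A. miR-194 has the seed GUAACAG. No other mature mouse miRNA of the RefSeq table used here has either seed.

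miR-192 is made from 1 gene, miR-215 from 1 gene and miR-194 from 2 genes. Mir192 lies on chromosome 19, plus strand, with its mature part at chr19:6264857-6264877. The Mir194-2 hairpin ends 115 bases before the Mir192 hairpin, with its mature part at chr19:6264658-6264679. That pair of hairpins sits between genes: the protein-coding gene Atg2a ends 2338 bases before Mir194-2, and the lncRNA Gm14963 starts 3861 bases after Mir192. On chromosome 1, also on the plus strand, the mature parts of Mir194-1 at chr1:185313325-185313346 and of Mir215 at chr1:185313610-185313630 belong to hairpins 195 bases apart. Both lie inside the span of Iars2, the gene of the mitochondrial isoleucyl-tRNA synthetase.

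The 2 hairpins of miR-194 are shown because they hold the same mature sequence, in capitals, within different arms and loops, so an array probe for the mature form cannot say which cluster it came from:
Mir194-2: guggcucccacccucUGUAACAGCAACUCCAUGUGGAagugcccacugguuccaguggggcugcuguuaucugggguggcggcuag
Mir194-1: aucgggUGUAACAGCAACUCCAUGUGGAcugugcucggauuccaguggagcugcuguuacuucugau

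miR-192 and miR-194 were measured in every liver, and miR-215 was measured in none. Each miRNA had 2 probes, called A and B here, with 7 to 10 spots each per array after outlier spots were left out. The scanner software marked miR-192 and miR-194 as detected on 19 of 19 arrays, and every spot of their 4 probes was well above background. Signals below are intensities after subtraction of the local background, which can be negative. The brighter probe of miR-192, probe B, read 1547 to 4203, with a median variation of 6.59% between spots of 1 array. The brighter probe of miR-194, probe A, read 211 to 732, with a median variation of 6.67%. These sizes belong to each probe and do not rank the miRNAs by abundance.

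miR-215, the member that shares its seed with miR-192, was detected on 0 of 19 arrays. Of its probe A spots 0 of 186, and of its probe B spots 0 of 187, were well above background. Probe A averaged -1.48 to 0.80 intensity units over the arrays and probe B -0.37 to 1.58. By group, probe B averaged 0.60 ± 0.86 in control livers, 0.52 ± 0.83 in low dose livers, 0.94 ± 0.21 in middle dose livers and 0.90 ± 0.12 in high dose livers (SD, n = 5, 5, 4 and 5). These means lie within a few units of zero. miR-215 was therefore not well above background in any group, entered no test and has no fold change. On the same arrays all 187 spots of each miR-192 probe were well above background. How far the probes of miR-192 and miR-215 tell their targets apart was not tested.

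**Figure D1:**
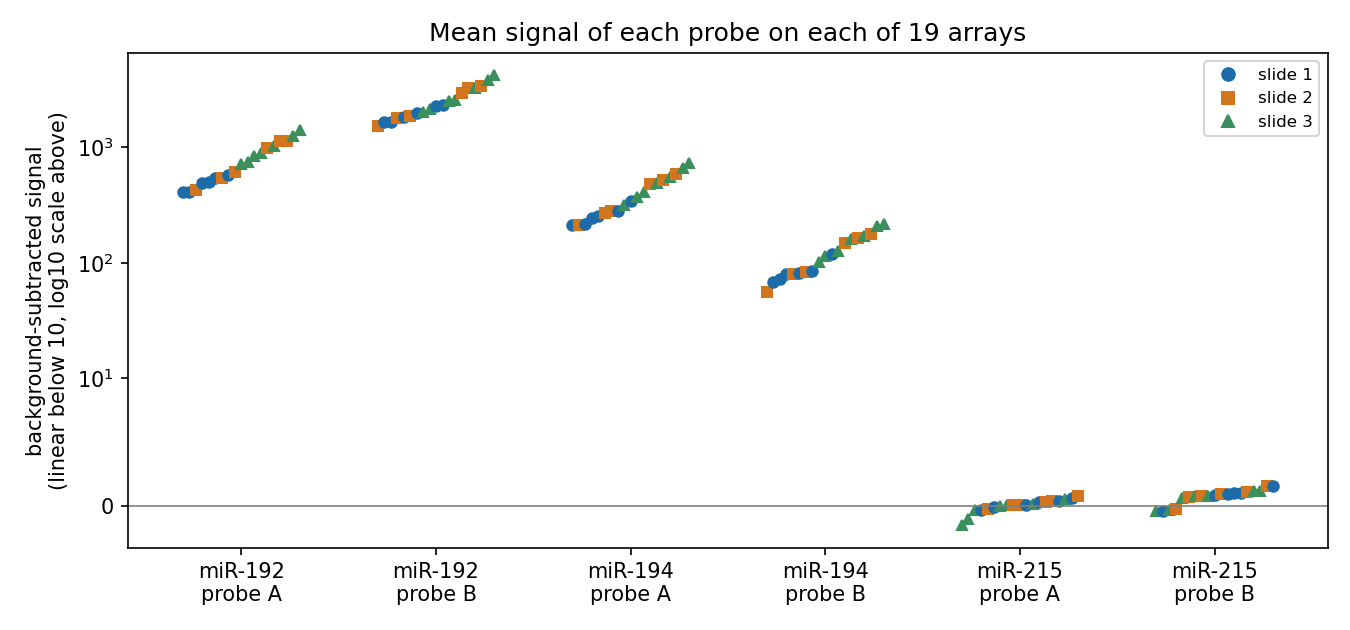
Background-subtracted signal of each probe of miR-192, miR-194 and miR-215 on 19 arrays, sorted within each probe, with the slide as colour and shape. The vertical axis is linear below 10 and on a log10 scale above. All points of miR-215 lie between -1.48 and 1.58, and all points of miR-192 and miR-194 lie far above.

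From here on a level is the log2 of the brighter probe's signal relative to the 75th percentile of the 220 probes detected on all arrays. The miR-192 level was 3.40, 3.09, 3.11, 3.14 and 3.098 in the 5 control livers. It was 3.39, 3.19, 3.28, 3.19 and 3.27 in low dose livers. It was 3.25, 3.25, 3.17 and 3.09 in middle dose livers, and 3.20, 3.01, 3.38, 3.48 and 3.22 in high dose livers. Every dose group overlapped the controls, and 1 high dose liver lay above and 1 below all of them. The group means were 3.17 ± 0.13 in controls, 3.26 ± 0.08 in low dose livers, 3.19 ± 0.08 in middle dose livers and 3.26 ± 0.18 in high dose livers (SD, n = 5, 5, 4 and 5).

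The miR-194 level was 0.65, 0.47, 0.59, 0.50 and 0.58 in the control livers. It was 0.34, 0.67, 0.64, 0.62 and 0.73 in low dose livers. It was 0.27, 0.29, 0.44 and 0.69 in middle dose livers, and 0.16, 0.16, 0.63, 0.62 and 0.54 in high dose livers. The high dose livers fell into a low pair and 3 within the range of the controls, and both low ones were on slide 1. The means were 0.56 ± 0.07 in controls, 0.60 ± 0.15 in low dose livers, 0.42 ± 0.19 in middle dose livers and 0.42 ± 0.24 in high dose livers (SD, n = 5, 5, 4 and 5). Of the middle dose livers 3 of 4, and of the high dose livers 2 of 5, lay below all controls. Such counts were not made for the other tested miRNAs.

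**Figure D2:**
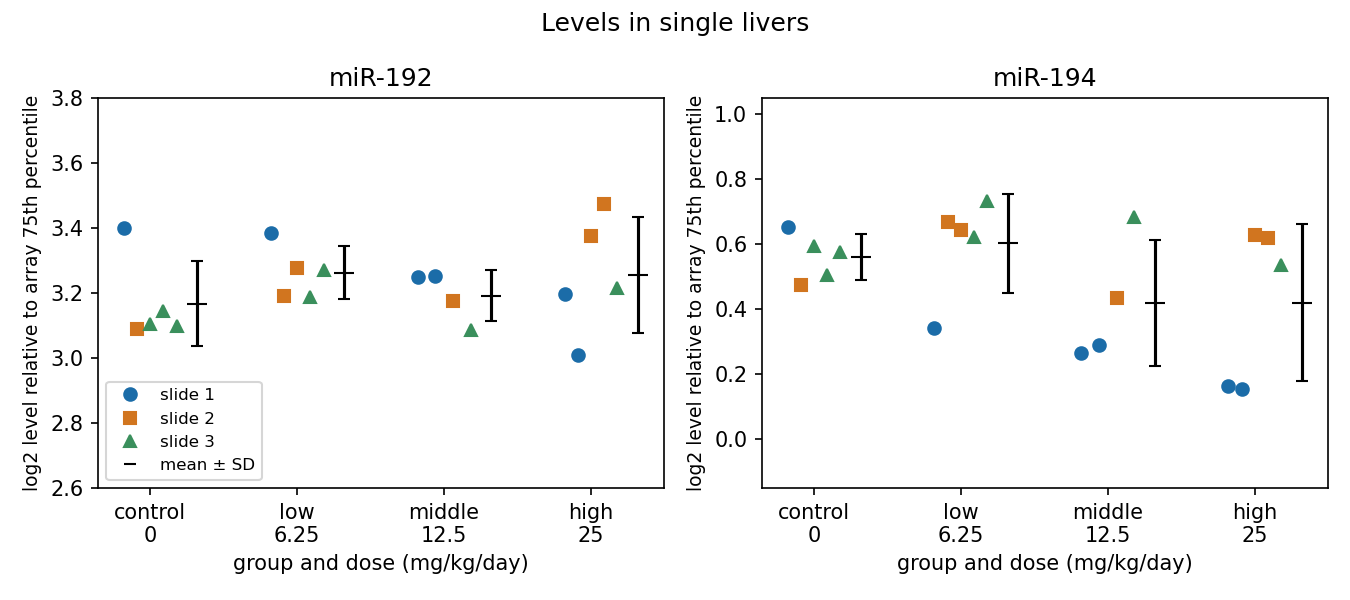
Levels of miR-192 (left) and miR-194 (right) in single livers by group and dose in mg/kg/day; the vertical axis is the log2 level relative to the array's 75th percentile and does not start at 0. Points are arrays with the slide as colour and shape, and the bars give mean ± SD. The 2 lowest miR-194 levels, both 0.16, are high dose livers on slide 1.

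Neither miRNA passed the test at any dose. Levels were compared over all 208 miRNAs detected on at least 4 arrays, with limma, the slide as a block and Benjamini-Hochberg adjustment, and a miRNA passed at an adjusted p under 0.05. At the low dose 9 of 208 miRNAs passed (4.33%), 12 passed in middle dose livers (5.77%) and 5 in high dose livers (2.4%), and 0 of the 2 tested members were among them. For the mean of the doses against control 17 passed (8.17%), and for the linear trend over dose and for any difference among the 4 groups 2 each (0.962% and 0.962%), again with 0 of the 2 tested members.

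For miR-192 the log2 change in limma was 0.08 in low dose livers (SE 0.08, 95% interval -0.10 to 0.25, adjusted p = 0.847). At the middle dose it was -0.01 (interval -0.20 to 0.18, limma adjusted p = 1), and in high dose livers 0.05 (interval -0.13 to 0.23, limma adjusted p = 0.795). As folds, the intervals ran from 0.936 to 1.19 in low dose livers, 0.874 to 1.13 in middle dose livers and 0.916 to 1.17 in high dose livers. In this scaling, changes of miR-192 larger than these lay outside the intervals, while other scalings, given below, moved the values.

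For miR-194 the log2 change in limma was 0.04 in low dose livers (interval -0.13 to 0.22, adjusted p = 0.998). It was -0.06 in middle dose livers (interval -0.25 to 0.12, limma adjusted p = 0.753) and -0.08 in high dose livers (SE 0.08, interval -0.26 to 0.09, limma adjusted p = 0.590). As folds, the high dose interval ran from 0.834 to 1.07. The slope over dose was -0.00434 log2 units per mg/kg/day for miR-194 and 0.00106 for miR-192 (limma adjusted p = 0.405 and 0.951). No contrast between 2 doses passed for either miRNA. The remaining spread between livers, after group and slide, was 0.13 log2 units for each of them, against a median of 0.14 over the 208 miRNAs.

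Of the other miRNAs named in connection with p53, miR-34a alone passed. A list of 13 such miRNAs held miR-34a, miR-34b and miR-34c forms, miR-107, miR-143, miR-145, miR-15a, miR-16 and the 3 members. Of these 6 were detected on no array and 7 were tested, of which 1 passed as higher and 0 passed as lower at each dose. That one was miR-34a, which p53 induces directly and which holds back cell division genes. Its log2 change was 1.52 in low dose livers, 3.11 in middle dose livers and 3.49 in high dose livers (limma adjusted p = 0.0165, 3.59e-05 and 4.88e-06), with every dosed liver above every control. The median log2 change of the 7 tested p53-linked miRNAs was 0.06, -0.01 and -0.05 in low, middle and high dose livers, against 0.07, 0.11 and 0.06 over all 208. The 4 other tested miRNAs of the list that are no members, miR-107, miR-143, miR-15a and miR-16, did not pass at any dose. Counting miR-34a and both members, 5, 3 and 3 of the 7 had a change above 0.

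Among 10 miRNAs known for hepatocytes, all tested, 0 passed at any dose. The list holds miR-122, the dominant miRNA of hepatocytes, miR-148a, miR-22, the miR-101 pair, miR-193, miR-365, miR-455 and both tested members. Its median log2 change was 0.00, -0.07 and -0.12 in low, middle and high dose livers. In low, middle and high dose livers 5, 3 and 4 of the 10 had a change above 0. miR-101b, the member of that list with the lowest value in middle dose livers, read -0.11, -0.30 and -0.29 (limma adjusted p = 0.826, 0.111 and 0.103). At the same doses miR-455 read -0.32, -0.23 and -0.54. The other way went miR-365 with 0.17, 0.12 and 0.20, and miR-193 read -0.0018, 0.11 and 0.19. miR-122 read 0.10, 0.15 and 0.11 on the same scale (limma adjusted p = 0.890, 0.474 and 0.647).

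Cell types and tissues other than hepatocytes were described through lists of miRNAs known for them. Of 8 miRNAs of bile duct and gut epithelium, 7 were tested and 0 passed at any dose, with miR-375 detected on no array. In low, middle and high dose livers 6, 5 and 5 of the 7 had a change above 0. At every dose miR-200a, miR-200b, miR-200c, miR-141 and miR-429 did, with miR-200c and miR-141 detected on 7 and 4 arrays only. By contrast miR-31 read -0.04, -0.31 and -0.33 and miR-203 0.01, -0.11 and -0.26. The summed linear level of that list ran from 0.28 to 0.43 in controls, 0.32 to 1.57 in low dose livers, 0.26 to 1.22 in middle dose livers and 0.29 to 2.91 in high dose livers. Of 4 kidney miRNAs, 3 were tested, and 1 passed: miR-10a, with log2 changes of 0.21, 0.11 and 0.13 in low, middle and high dose livers (limma adjusted p = 0.0259, 0.176 and 0.103). The other 2 did not pass: miR-10b read -0.03, 0.34 and 0.17, and miR-30a -0.13, -0.17 and -0.28. The summed linear level of the kidney list ran from 2.42 to 2.88 in controls, 2.31 to 2.59 in low dose livers, 2.11 to 2.56 in middle dose livers and 1.91 to 2.53 in high dose livers. Its mean level was 1.03 for miR-30a, -1.43 for miR-10a and -4.60 for miR-10b, so the sum mainly reads miR-30a. The remaining kidney miRNA, miR-204, was detected on 1 array and not tested. The 3 pancreas miRNAs were detected on no array. Among 7 leukocyte miRNAs 5 were tested, and miR-223 alone passed. That miRNA of neutrophils and other myeloid cells rose at each dose by 0.37, 0.48 and 0.39 (limma adjusted p = 0.0382, 0.0198 and 0.0482). At the low, middle and high dose miR-142-3p read 0.19, 0.20 and 0.12 and miR-146a 0.28, 0.17 and 0.15. There miR-142-5p read 0.26, 0.01 and -0.08 and miR-342-3p -0.02, 0.06 and 0.16. Both miR-150 and miR-155 were detected on no array. The endothelial miR-126-3p read 0.29, 0.16 and 0.08 (limma adjusted p = 0.0268, 0.191 and 0.518). The other endothelial form, miR-126-5p, detected on 9 arrays, read 0.05, -0.0013 and -0.0093 and did not pass. Mean levels of miR-126-5p (-4.77), miR-342-3p (-4.69) and miR-10b (-4.60) lay near -4.79, the floor to which lower values were raised. Their changes can be compressed by it and are not comparable with those of brighter miRNAs. Of the tested miRNAs of erythroid cells, of stellate and smooth muscle cells and of skeletal muscle, 0 passed. The part of other cells in the levels of miR-192 and miR-194 was not tested.

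The direction of the small changes depended on how arrays were made comparable, and the dosed arrays were dimmer. The 75th percentile of signal averaged 357 ± 111 in controls, 301 ± 74.6 in low dose livers, 215.1 ± 60.7 in middle dose livers and 195 ± 37.4 in high dose livers (SD, n = 5, 5, 4 and 5). The log2 signal of spike-in RNAs added for labelling averaged 10.08 ± 0.17 in high dose livers and 10.93 ± 0.23 in controls (SD, n = 5 each), with all 5 high dose arrays below all controls. The position of an array on its slide moved with dose as well. All 5 high dose arrays and 3 of 4 middle dose arrays lay in row 2 of a slide, as did 1 of 5 low dose and 1 of 5 control arrays.

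Without scaling, miR-192 and miR-194 both fell in high dose livers, by 0.66 and 0.79 on the log2 scale (limma adjusted p = 0.0281 each). In that setting 69 of the 208 miRNAs passed at the high dose, and the median of the 208 moved by -0.47. Scaled to the 75th percentile of all probes, detected or not, both members fell in middle dose livers by 0.50 and 0.55 (limma adjusted p = 0.0300 and 0.0293). There 34 of the 208 passed at the middle dose, with a median of -0.15 over the 208. Under quantile normalization the high dose changes were 0.04 for miR-192 and -0.10 for miR-194, and scaled to the labelling spike-ins they were 0.14 and 0.00, none passing. The main scaling, read against the median over the 208, put miR-192 at 0.00, -0.12 and -0.01 and miR-194 at -0.03, -0.17 and -0.15 in low, middle and high dose livers. miR-194 lay below that median in each of these scalings at every dose. Under quantile normalization the median itself lay near 0 at every dose. In the main scaling 88, 26 and 32 of the 208 miRNAs had a lower change than miR-194 in low, middle and high dose livers.

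**Figure D3:**
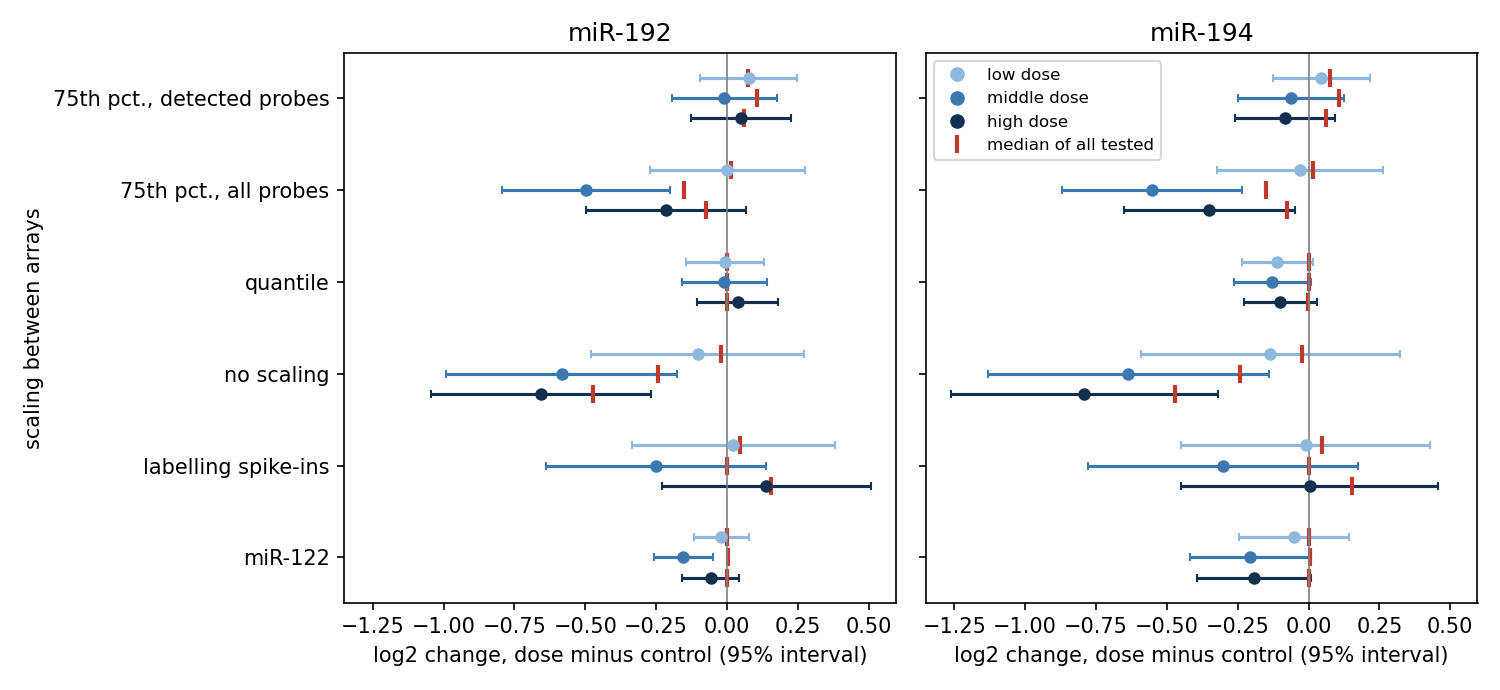
Log2 change of miR-192 (left) and miR-194 (right), dose minus control, with 95% intervals from limma, under 6 ways of scaling the arrays; red ticks give, for each scaling, the median change over the 208 miRNAs tested. The ticks lie near 0 under quantile normalization and with miR-122, and miR-194 lies left of the tick in every scaling shown.

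A difference of 2 miRNAs on the same array does not depend on any scaling by 1 factor per array, though quantile normalization can change it. Its size carries the brightness of the probes and has no meaning of its own. Its change between groups shows unequal change of the signals of the probes used, and it differed with the probe, as given below. miR-192 minus miR-194 was 3.04, 2.85, 2.75, 2.85 and 2.68 in the high dose livers, against 2.75, 2.62, 2.51, 2.64 and 2.52 in control livers. At the high dose 4 of 5 livers lay above all controls, a count not made for the other tested miRNAs. The means were 2.83 ± 0.13 in high dose livers and 2.61 ± 0.10 in controls (SD, n = 5 each), a difference of 0.23, or 1.17-fold (exact permutation test, two-sided, p = 0.0159, adjusted over 3 doses 0.0476). So with these probes the miR-194 signal was lower relative to miR-192 in high dose livers. Slide, row on the slide and array brightness were not taken into account there.

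The same difference was 3.04, 2.52, 2.64, 2.56 and 2.54 in low dose livers, and 2.99, 2.96, 2.74 and 2.40 in middle dose livers. Both groups overlapped the controls, with changes of 0.05 and 0.16 (exact permutation tests, two-sided, p = 0.754 and 0.238, adjusted 0.754 and 0.357). Without replicate 3 the low dose change was -0.042, and without replicate 20 the middle dose change was 0.29 (exact permutation p = 0.0357).

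The high dose shift was smaller when dosed and control livers were exchanged only within slides. It was then 0.17 over 36 arrangements (exact permutation p = 0.0556, adjusted 0.167), with 0.20, 0.18 and 0.12 on slides 1, 2 and 3. The choice of probe mattered too. With probe B of miR-192 the change was 0.23 and 0.25 against the 2 probes of miR-194 (exact permutation p = 0.0159 for each), whereas with probe A of miR-192 it was 0.13 and 0.16 (exact permutation p = 0.135 and 0.214). All 4 pairings and all 3 slides gave a higher difference in high dose livers.

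The shift was smaller again with the row on the slide in the fit. A least-squares fit with group and slide gave 0.14 in high dose livers against control (SE 0.07). With the row as a further term it was 0.08 (SE 0.09), and with each row of each slide as a block 0.03 (SE 0.10), smaller than its error. In the limma fit with each row of each slide as a block, miR-192 was at 0.04 and miR-194 at 0.0024 in high dose livers (limma adjusted p = 1 for each). All 5 high dose arrays lay in row 2 and 4 of 5 controls in row 1, so the parts of dose and row cannot be told apart.

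The same difference also followed the brightness of the array. Over 19 arrays it fell with the log2 array signal, with Pearson's r of -0.72 and Spearman's rho of -0.79 (permutation p = 0.00064 and 0.00012, adjusted over 9 relations 0.00192 and 0.00054). Without the 2 arrays farthest from the median signal r was -0.67. With group and slide means removed r was -0.48 (permutation p = 0.0391, adjusted 0.0503), a p that is likely too small because the permutation did not allow for the removed means. Within slides 1, 2 and 3 r was -0.28, -0.96 and -0.41. Array signal and dose moved together here, so their parts in the high dose shift cannot be told apart.

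**Figure D4:**
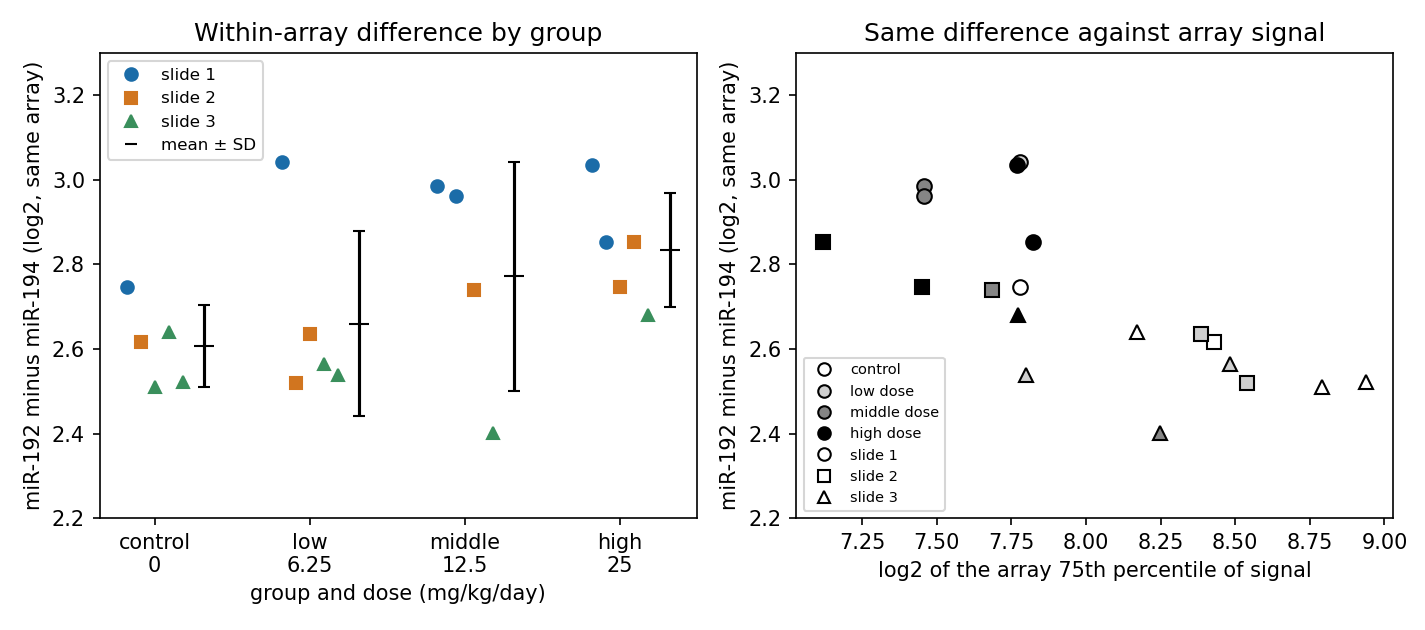
Left, the log2 difference miR-192 minus miR-194 of each array by group and dose in mg/kg/day, with mean ± SD and the slide as colour and shape. Right, the same difference against the log2 of the array's 75th percentile of signal, with the group as fill and the slide as shape. The dimmer arrays, to the left, hold the higher differences and most of the middle and high dose livers.

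miR-122 gave a second yardstick on the same arrays. miR-192 minus miR-122 was -3.51, -3.65, -3.46 and -3.52 in the middle dose livers, against -3.42, -3.33, -3.41, -3.35 and -3.31 in control livers, so that the groups did not overlap. How many other tested miRNAs lay apart from the controls in this way was not counted. The change was -0.17 (exact permutation p = 0.00794, the smallest this design can give, adjusted over 6 tests 0.0476). Within slides it was -0.15 (exact permutation p = 0.0417, the smallest that its 24 arrangements can give, adjusted 0.167). It was -0.02 in low dose livers and -0.06 in high dose livers (exact permutation p = 0.603 and 0.151). With another background correction (normexp, offset 50), followed by quantile normalization, the middle dose change was -0.03 (exact permutation p = 0.952). Background and normalization both differ there, so their parts in that value cannot be told apart. With probe A of miR-192 the middle dose change was -0.32 and -0.33 (exact permutation p = 0.143 and 0.103).

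miR-194 minus miR-122 was -6.51, -6.19, -6.24, -6.36 and -6.03 in the high dose livers, against -6.17, -5.95, -5.93, -5.99 and -5.83 in control livers, and 4 of 5 high dose livers lay below all controls. The change was -0.29 (exact permutation p = 0.0159, adjusted 0.0476), and within slides, over 36 arrangements, it was -0.21 (exact permutation p = 0.0556, adjusted 0.167). It was -0.07 in low dose livers and -0.33 in middle dose livers (exact permutation p = 0.675 and 0.0873), and the middle dose value was -0.46 without replicate 20 (exact permutation p = 0.0179). With normexp and quantile normalization the high dose change was -0.12 (exact permutation p = 0.0556). The share of other tested miRNAs with as many livers below all controls was not counted. In the limma test across all 208 miRNAs scaled to miR-122, neither member passed at any dose. There 0, 4 and 13 of the 208 passed in low, middle and high dose livers.

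Slides held the groups in unequal shares, so their plain means carry the dose as well. miR-194 averaged 0.31 ± 0.18 on slide 1, 0.58 ± 0.10 on slide 2 and 0.61 ± 0.08 on slide 3, and miR-192 averaged 3.25 ± 0.14, 3.26 ± 0.14 and 3.16 ± 0.07 (SD, n = 6, 6 and 7). With the group fitted, miR-194 was 0.25 higher on slide 2 and 0.26 higher on slide 3 than on slide 1 (SE 0.07 each), while miR-192 differed from slide 1 by 0.00056 and -0.09 (SE 0.07 each). The 1 control on slide 1 did not follow this, with the highest miR-194 level of the controls (0.65, against 0.47 to 0.59). Within slides, miR-194 in high dose livers minus control was -0.49 on slide 1, 0.15 on slide 2 and -0.02 on slide 3. miR-192 in high dose livers minus control was -0.30, 0.33 and 0.10. Slides 1 and 2 held 1 control each, so these values rest on single livers. Each of the 2 miRNAs was lower than control on slide 1 and higher on slide 2.

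The levels of miR-192 and miR-194 correlated across livers to a degree that depended on the processing. With group and slide means removed, Pearson's r was 0.66 and Spearman's rho 0.58 over 19 arrays (permutation p = 0.0028 and 0.00992, adjusted over 9 relations 0.00504 and 0.0149). The permutation did not allow for the removed means, so these p-values are likely too small. Without the 2 arrays farthest in miR-192, r was 0.65 and rho 0.46 (permutation p = 0.0055 and 0.065). Within slides 1, 2 and 3 r was 0.73, 0.78 and 0.08 (exact permutation p = 0.151, 0.0694 and 0.864). It was 0.27 with only group means removed and 0.13 under quantile normalization (permutation p = 0.268 and 0.602). Levels of 1 array share its scaling term, and the miR-192 level itself fell with array signal (r = -0.78 with group and slide means removed, permutation p = 6e-05, adjusted 0.00027). That signal is the divisor of the level, so a negative r is partly built in. The permutation does not allow for this, and no conclusion is drawn from its p. As a measure of technical agreement, the 2 probes of miR-192 correlated with r = 0.67 and those of miR-194 with r = 0.85.

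The partner from the same cluster was not the closest match of either miRNA. Over 19 arrays, with group and slide means removed, the levels most like miR-192 among 207 other tested miRNAs were those of miR-122, miR-21 and miR-22 (r = 0.95, 0.95 and 0.95), and miR-194 ranked 45 among them. The levels most like miR-194 were those of miR-30e, miR-30d and miR-690 (r = 0.92, 0.85 and 0.84), the last detected on 12 arrays only, and miR-192 ranked 38. The median r over the 207 was 0.48 for miR-192 and 0.35 for miR-194. miR-34a ranked 207, the lowest, for miR-194 (r = -0.45) and 156 for miR-192 (r = 0.13). These are descriptions, since all values of an array share its scaling.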

How the data were processed

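Liver RNA of 19 mice was hybridized to one-colour Agilent miRNA arrays, 100 ng per array. Per the file headers, Agilent Feature Extraction 10.7.3.1 read each spot's intensity and subtracted the local background, with no scaling between arrays. The authors also deposited a table of log2 values for 692 miRNAs, used as an alternative; 636 of its names were matched, and its making is not given in the sources used.

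Control spots and outlier-marked spots (22 for the members) were left out, and 0 spots were saturated. Spots were averaged per probe, divided by the array's 75th percentile over 220 probes, raised to a floor of -4.79 on the log2 scale, and the brightest of a miRNA's probes was kept. Probes A and B are A_54_P2460 and A_54_P2461 for miR-192, A_54_P1151 and A_54_P1152 for miR-194, and A_54_P1551 and A_54_P1552 for miR-215.

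limma 3.58.1 in R 4.3.3 used 4 groups and the slide as a fixed block, two-sided except the F test for any difference. Within-array differences were compared by exact permutation and by least squares with slide and row (no test), and correlations by 100000 permutations. Where group or slide means were removed first, the remainders were permuted freely, so those p-values are approximate. Of the 9 differences planned between members and of the 9 planned against miR-122, those with miR-215 (6 and 3) could not be run. No 2 arrays held identical values. Both tests were checked on simulated data. The miRNAs named are the members, their lists, miR-34a, miR-122 and the 3 most alike. Members and lists were chosen with earlier results of these data known. Alternatives were other scalings, blocks, probes, background corrections and left-out arrays.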

Additional observations from a re-analysis of the deposited data

Results flagged for a closer look

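In 20 groups of arrays tested for 1 outlying value by its gap to the nearest other array, 4 were marked, where chance marks about 1 in 20. The miR-192 level of control replicate 1, 3.40, stood above the other 4 controls, which lay between 3.09 and 3.14. The other 3 marks were 1 low dose liver, replicate 3, also on slide 1. Its miR-194 level was 0.34, against 0.62 to 0.73 in the other low dose livers. Its miR-192 minus miR-194 was 3.04, against 2.52 to 2.64, and its miR-194 minus miR-122 was -6.49, against -6.01 to -5.84. These 3 marks share 1 miR-194 measurement.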

How the results depend on the processing

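Over 191 limma values of miR-192 and miR-194 under alternatives other than left-out arrays, 6 passed. All 6 came without scaling or with the 75th percentile of all probes. Of all 208 miRNAs, 69 passed at the high dose without scaling and 34 at the middle dose with all probes. With 1 array left out, 0 of 190 values passed (lowest limma adjusted p 0.0963). Values below are log2 changes against control, or log2 units per mg/kg/day for the trend, and the causes of their shifts were not tested.

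With the 75th percentile of all probes miR-192 was -0.50 in middle dose livers, -0.21 in high dose livers, -0.24 over the mean of doses and -0.0102 in the trend, and miR-194 was -0.031 in low dose and -0.55 in middle dose livers. Without scaling miR-192 was -0.10 in low dose livers, -0.66 in high dose livers, -0.45 over the mean of doses and -0.0276 in the trend (limma adjusted p = 0.0111). Without scaling miR-194 was -0.13 in low dose livers, -0.79 in high dose livers and -0.0330 in the trend (limma adjusted p = 0.0106). With labelling spike-ins miR-192 was -0.029 over the mean of doses, and miR-194 was -0.0094 in low dose and 0.0040 in high dose livers. With total gene signal miR-192 was -0.011 in low dose livers, -0.0022 in high dose livers, -0.060 over the mean of doses and -0.00028 in the trend, and miR-194 was -0.060 in low dose livers. Quantile normalization gave -0.0078 for miR-192 and -0.11 for miR-194 in low dose livers. Normexp was run on median signals and followed by quantile normalization. It gave -0.013 for miR-192 over the mean of doses, -0.10 for miR-194 in low dose livers, and 0.069 for miR-192 minus miR-122 in high dose livers. The deposited value table gave 0.027 for miR-192 in middle dose and -0.051 for miR-194 in low dose livers. For miR-192 in high dose livers it gave 0.18 (95% interval 0.03 to 0.32, limma adjusted p = 0.115 over 187 miRNAs), more than in the main scaling. Its trend for miR-192 was 0.0072 (limma adjusted p = 0.0763). Neither passed.

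Alternatives chosen after seeing the data were scaling to miR-122 or miR-192, array signal as a covariate, other probe pairings, and normexp or blocks for the row on the slide for the within-array differences. Scaled to miR-122, miR-192 was -0.019 in low dose livers, -0.058 in high dose livers, -0.077 over the mean of doses and -0.0025 in the trend, and miR-194 was -0.051 in low dose livers. Scaled to miR-192, miR-194 was -0.032 in low dose livers. With array signal as a covariate miR-192 was -0.14 in high dose livers, -0.092 over the mean of doses and -0.0056 in the trend. With array weights miR-192 was 0.017 in middle dose livers and miR-194 0.00095 over the mean of doses. Without a slide term miR-192 was 0.024 in middle dose livers, and with the slide as a random block 0.0082. With each row of each slide as a block miR-192 was 0.0080 in middle dose livers, and miR-194 was 0.038 in middle dose livers, 0.0024 in high dose livers and 0.028 over the mean of doses. Within slide 1 miR-192 was -0.014, -0.15 and -0.30 and miR-194 -0.31, -0.37 and -0.49 in low, middle and high dose livers. Within slide 2 miR-192 was 0.084 in middle dose and 0.33 in high dose livers.

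For miR-192 minus miR-194, probe A of miR-192 gave 0.13 and 0.16 in high dose livers and -0.00056 and -0.043 in middle dose livers, and permutation within slides gave 0.17 in high dose livers. With slide and row as terms it was 0.077 in high dose livers, and with each row of each slide as a block 0.034, and -0.030 in middle dose livers. The correlation of both miRNAs was 0.27 with only group means removed and 0.13 under quantile normalization.

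With 1 array left out, miR-192 ran from 0.024 to 0.14 in low dose livers, -0.058 to 0.070 in middle dose livers, -0.0045 to 0.13 in high dose livers, -0.013 to 0.11 over the mean of doses and -0.0011 to 0.0035 in the trend. miR-194 ran from -0.0060 to 0.15, -0.13 to 0.072, -0.14 to 0.042 and -0.084 to 0.087 in the same comparisons and -0.0061 to -0.00089 in the trend. miR-192 minus miR-194 ran from -0.042 to 0.088 in low dose livers, 0.094 to 0.29 in middle dose livers and 0.18 to 0.27 in high dose livers (exact permutation p = 0.0159 to 0.0317 there, unadjusted). miR-194 minus miR-122 ran from -0.12 to 0.040 in low dose livers. The number of miRNAs that passed ran from 0 to 14, 1 to 36 and 1 to 69 in low, middle and high dose livers over all alternatives. No paired analysis was possible because the groups share no replicate numbers. In the main scaling, changes within the limma intervals were not excluded, and miR-215 lay too near background to be compared.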
